A study of Mus musculus with 18 samples.

Results

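Sgk1, the kinase through which aldosterone is best known to raise sodium transport in the kidney, was followed in mouse aorta together with 6 genes that act around it: Nedd4l, Usp2, Atp1b1, Wnk1, Stk39 and Oxsr1. The members were taken as every probe set annotated to 1 of these 7 gene symbols and to no other gene, which gave 16 of the 20380 probe sets with 1 gene. Of these, 13 had a log2 value above 4 in at least 3 samples, the filter used for testing, and each of the 7 genes kept at least 1, among 7092 genes tested.

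The samples were 18 aorta pools from wild-type male C57Bl/6 mice, each pool made of 3 aortas. All animals, those behind the vehicle samples included, had received spironolactone, an antagonist of the mineralocorticoid receptor, at 20 mg/kg/day for 5 days from a pellet under the skin. Excised aortas were then kept in organ culture with 100 nM aldosterone or with vehicle for 2, 4 or 8 h, and each of the 6 combinations had 3 pools. The mice's age is not given in the sources used here, aortas without spironolactone or without culture were not analysed here, and a whole aorta mixes cell types, so fewer cells of a type and less RNA per cell cannot be told apart.

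In the distal nephron, aldosterone bound to the mineralocorticoid receptor induces SGK1, a serine/threonine kinase of the same family as AKT. SGK1 phosphorylates NEDD4L, a ubiquitin ligase that otherwise removes the epithelial sodium channel from the apical membrane, while the deubiquitinase USP2 takes ubiquitin off the channel. Sodium that enters leaves through the sodium pump, whose beta subunit ATP1B1 brings the catalytic alpha subunit to the membrane. A parallel cascade runs from the kinase WNK1 to STK39 (SPAK) and OXSR1 (OSR1), which phosphorylate the cation-chloride cotransporters and which also act in vascular smooth muscle. SGK1 is expressed in many tissues outside the kidney and responds to glucocorticoids, serum and cell stress as well as to aldosterone.

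Promoter sequence of Sgk1 is shown because Sgk1 was the member that passed the test for aldosterone. From RefSeq, on GRCm38.p6, 11 promoter windows were taken, for 6 of the 7 genes. Each is 300 bases long, with 250 before and 50 after a transcription start, and 6 of the windows belong to Sgk1. The windows were searched on both strands for exact matches to motifs. These were the cAMP response element TGACGTCA, the E-box CACGTG and the glucocorticoid response element with its single arm AGAACA. The glucocorticoid response element was taken as AGAACA, any 3 bases and TGTTCT, and looser forms were not searched. The mineralocorticoid and glucocorticoid receptors bind the same element. Capitals mark the matches in the sequences below, which run 5′ to 3′ along the gene's strand. The first window is chr10:21993640-21993939 (plus strand), at start 5 of 6 along the chromosome, and the next is chr10:21991973-21992272 (plus strand), at start 4. After them come the Usp2 window, chr9:44084670-44084969 (plus strand), shown because Usp2 had the next largest aldosterone difference, and the Oxsr1 window, chr9:119322378-119322677 (minus strand), shown for the member that rose in culture with or without hormone.
Sgk1, start 5: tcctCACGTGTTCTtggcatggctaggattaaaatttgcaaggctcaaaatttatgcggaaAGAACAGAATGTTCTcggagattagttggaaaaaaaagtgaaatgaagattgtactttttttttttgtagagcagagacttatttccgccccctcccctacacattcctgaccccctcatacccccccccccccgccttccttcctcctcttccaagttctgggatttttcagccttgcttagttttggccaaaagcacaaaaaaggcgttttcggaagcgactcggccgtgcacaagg
Sgk1, start 4: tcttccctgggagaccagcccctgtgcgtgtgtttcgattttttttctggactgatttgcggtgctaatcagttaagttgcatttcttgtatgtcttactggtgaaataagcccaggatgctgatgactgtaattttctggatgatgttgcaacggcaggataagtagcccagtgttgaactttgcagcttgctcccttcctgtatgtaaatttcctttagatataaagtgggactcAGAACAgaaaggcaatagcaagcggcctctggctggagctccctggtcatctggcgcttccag
Usp2: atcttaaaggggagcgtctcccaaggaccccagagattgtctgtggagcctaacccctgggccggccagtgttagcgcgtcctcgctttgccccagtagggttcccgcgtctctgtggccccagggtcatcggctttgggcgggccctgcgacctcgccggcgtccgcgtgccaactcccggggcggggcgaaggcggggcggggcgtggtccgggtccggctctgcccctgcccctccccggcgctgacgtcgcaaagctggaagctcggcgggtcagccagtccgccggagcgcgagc
Oxsr1: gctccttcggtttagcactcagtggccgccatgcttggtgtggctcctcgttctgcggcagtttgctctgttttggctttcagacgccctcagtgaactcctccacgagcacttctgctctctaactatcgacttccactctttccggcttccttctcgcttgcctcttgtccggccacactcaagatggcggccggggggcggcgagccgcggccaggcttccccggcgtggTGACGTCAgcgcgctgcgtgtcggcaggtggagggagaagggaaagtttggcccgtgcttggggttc

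The full element stood once, as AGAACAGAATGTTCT, with its first base 189 bases before Sgk1 start 5. It lay 965 bases before start 6, the most downstream one. Of 32851 promoter windows of the RefSeq table, 3 held an exact match to the full element, or 0.00913%. The single arm is common, being in 19% of windows. The window of Sgk1 start 5 held it 3 times: at 189 and 180 bases before the start, where both copies are arms of the full element, and at 242 bases, where it overlaps an E-box that begins at 246. E-boxes were in 7.15% of windows. The window of start 4 had 1 single arm, 13 bases before the start, and that of start 1 had 1, 195 bases before. The Usp2, Atp1b1, Wnk1 and Stk39 windows had no match to any of the 4 motifs. The Usp2 window begins at base 44084670 of chromosome 9, within a gene listed from 44067021, so any start further upstream was not searched. The Oxsr1 window had 1 cAMP response element, 17 bases before its start, a motif found in 1.79% of windows. These matches describe letters in the windows; the arrays do not show which start was used or what was bound.

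Markers of cell types of the aorta were measured above the filter. All 6 smooth muscle markers passed the filter, at log2 values of 8.66 to 14.94, as did all 5 endothelial and all 4 fibroblast markers, and 3 of the 4 adipocyte markers measured also passed, reaching 11.36. None of 8 kidney epithelium markers passed the filter, their highest value being 4.23. Of 6 cardiac and skeletal muscle markers 3 passed, reaching 7.40, and of 4 adrenal cortex markers measured 1 passed, Star, reaching 5.82. One library stood apart: vehicle 2 h replicate 1 had a median log2 value of 4.42, against 4.01 to 4.09 in the other 17, and 908 of the 7092 genes in it were off from the mean of the other samples of its group by more than 1 on the log2 scale, against 17 to 239 genes in the other 17. Where leaving this library out changed the call of a member or pathway gene named below, that is said beside the result. A member's value that moved by much is also given without this library. Changes below are log2 differences ± SE from limma, 3 samples against 3, with the SE based on 1 spread per gene over all 18 samples. Adjusted p-values cover all 7092 genes (Benjamini-Hochberg), and per-sample values are listed from replicate 1 to replicate 3. Levels are not compared between probe sets.

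Sgk1 was about as high in the aldosterone samples as in the vehicle samples at 2 h, and lay above vehicle at 4 and 8 h. At 2 h its log2 values were 12.76, 12.50 and 12.73 with aldosterone, against 12.64, 12.72 and 12.60 with vehicle. At 4 h they were 12.15, 12.30 and 12.12 with aldosterone, against 11.39, 11.50 and 10.89 with vehicle. At 8 h they were 11.72, 11.65 and 11.60 with aldosterone, against 10.44, 11.07 and 11.18 with vehicle. The groups overlapped at 2 h, and at 4 and 8 h every aldosterone sample lay above every vehicle sample. Samples did not overlap in 10.6% of all genes at 4 h and in 14.5% at 8 h. The difference was 0.01 ± 0.17 at 2 h (95% interval -0.35 to 0.36, adjusted p = 0.991), and Sgk1 rose by 0.93 ± 0.17 at 4 h, or 1.90-fold (95% interval 0.58 to 1.28, adjusted p = 0.0219). At 8 h it rose by 0.76 ± 0.17, or 1.69-fold (95% interval 0.41 to 1.11, adjusted p = 0.0335). Averaged over the 3 times, the rise was 0.56 ± 0.10 (adjusted p = 0.00384).

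**Figure D1:**
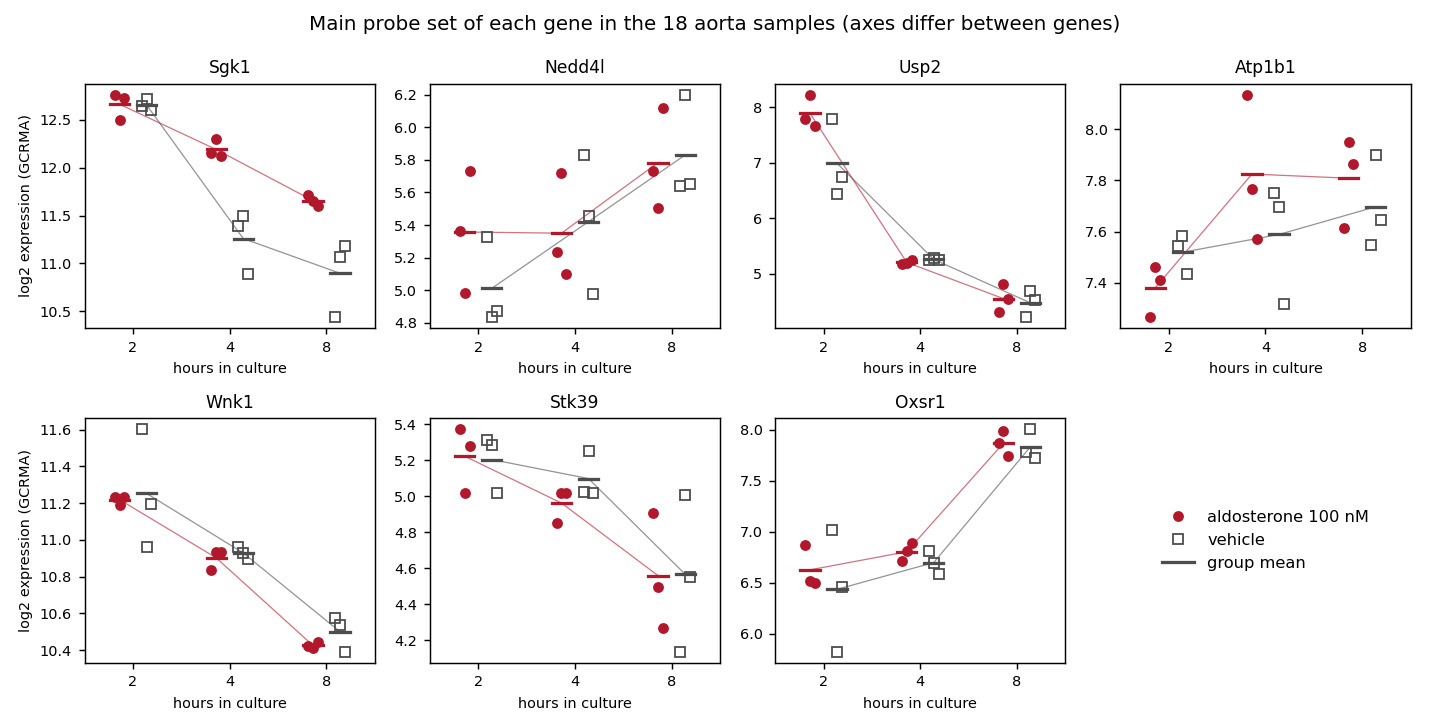
Log2 expression (GCRMA) of the main probe set of each of the 7 genes against hours in culture, one point per aorta pool, with aldosterone as filled red circles, vehicle as open grey squares and group means as horizontal lines; each gene has its own vertical axis. Sgk1 separates by treatment at 4 and 8 h, while Usp2, Wnk1, Stk39 and Oxsr1 follow the hours in culture, with vehicle 2 h replicate 1 high in Usp2, Wnk1 and Oxsr1.

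The Sgk1 difference opened while the gene was falling in both arms of the culture. With aldosterone the group mean was 12.66 at 2 h, 12.19 at 4 h and 11.66 at 8 h, and in vehicle it was 12.65, 11.26 and 10.90 at the same times. In vehicle Sgk1 fell by 1.39 ± 0.17 between 2 and 4 h (adjusted p = 7.97e-06), and the further difference between 8 and 4 h was -0.36 ± 0.17 (adjusted p = 0.101). Over 2 to 8 h it fell by 1.0 ± 0.17 with aldosterone (adjusted p = 6.37e-05), against a fall by 1.76 ± 0.17 in vehicle (adjusted p = 1.09e-07). All aldosterone samples at 4 and 8 h lay below all aldosterone samples at 2 h. With aldosterone 27.3% of all genes were called lower at 8 h than at 2 h, and the share without overlap is not given here. The aldosterone differences and the changes in vehicle share the vehicle samples. The aldosterone difference at 4 h was 0.92 ± 0.24 larger than at 2 h (unadjusted p = 0.00115), but over all genes the F test of a difference between times did not pass (adjusted p = 0.417). Ranked by mean, the 6 groups ran aldosterone 2 h, vehicle 2 h, aldosterone 4 h, aldosterone 8 h, vehicle 4 h and vehicle 8 h. Only the first and the last pair of neighbours overlapped sample by sample. The samples of aldosterone 8 h, at 11.60 to 11.72, thus lay above those of vehicle 4 h, at 10.89 to 11.50.

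The adjusted p-values of Sgk1 stood near the threshold and depended on the settings. The direction was the same under all 28 alternatives at 4 and at 8 h, but the call was lost under 8 of them at 4 h and 10 of them at 8 h. Without vehicle 4 h replicate 3 the 4 h difference was 0.74 (adjusted p = 0.138), and without vehicle 8 h replicate 1, the lowest Sgk1 sample of the series, the 8 h difference was 0.53 (adjusted p = 0.148). The rise averaged over the times was past the threshold under every alternative run for it. Among the cell type markers 1 passed for aldosterone, the macrophage gene Mrc1 at 8 h, by 1.27 ± 0.28 (adjusted p = 0.0335), while the macrophage list means per sample were 5.41 to 5.76 with aldosterone and 5.24 to 5.61 with vehicle. The smooth muscle list means at 8 h were 11.26 to 11.54 with aldosterone and 11.39 to 11.68 with vehicle. The adipocyte list means at 8 h did not overlap, at 6.61 to 6.84 with aldosterone and 6.06 to 6.42 with vehicle. Its gene Ucp1 differed by 1.02 ± 0.48 and Cidec by 0.66 ± 0.42, neither past the test (adjusted p = 0.791 and 1), and Adipoq by -0.12 ± 0.25. At 4 h the adipocyte list means were 6.00 to 7.24 with aldosterone and 6.10 to 6.26 with vehicle. The cardiac and skeletal muscle list means at 8 h were 3.57 to 4.87 with aldosterone and 3.29 to 3.70 with vehicle. Myh6 of that list differed by 1.13 ± 0.58 and Tnnt2 by 1.09 ± 0.46, neither past the test (adjusted p = 0.859 and 0.654). The part of such shifts in the Sgk1 difference was not tested.

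With all samples in, no aldosterone difference of the other 6 genes passed the test at any time. At 2 h, 0 of the 7 genes passed, against 0.0705% of all genes tested, and 1 member, Usp2, had an unadjusted p under 0.05, against 11% of genes. At 4 h 1 of 7 passed, Sgk1, against 0.24%. At 8 h 1 of 7 passed, again Sgk1, against 1% of all genes, as for the mean of the times, with 1.1%. Without vehicle 2 h replicate 1, Usp2 passed at 2 h and for the mean of the times, the second with 0.44 ± 0.10 (adjusted p = 0.0344), against 0.31 ± 0.15 with all samples (adjusted p = 0.599). For the difference between times 0 of 7 passed, against 0.155%, and 2 members, Sgk1 and Usp2, had an unadjusted p under 0.05, against 5.92%. The median aldosterone difference over the 7 members was 0.02 at 2 h, -0.03 at 4 h and 0.03 at 8 h, beside medians of -0.07, 0.01 and 0.01 over all genes.

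**Figure D2:**
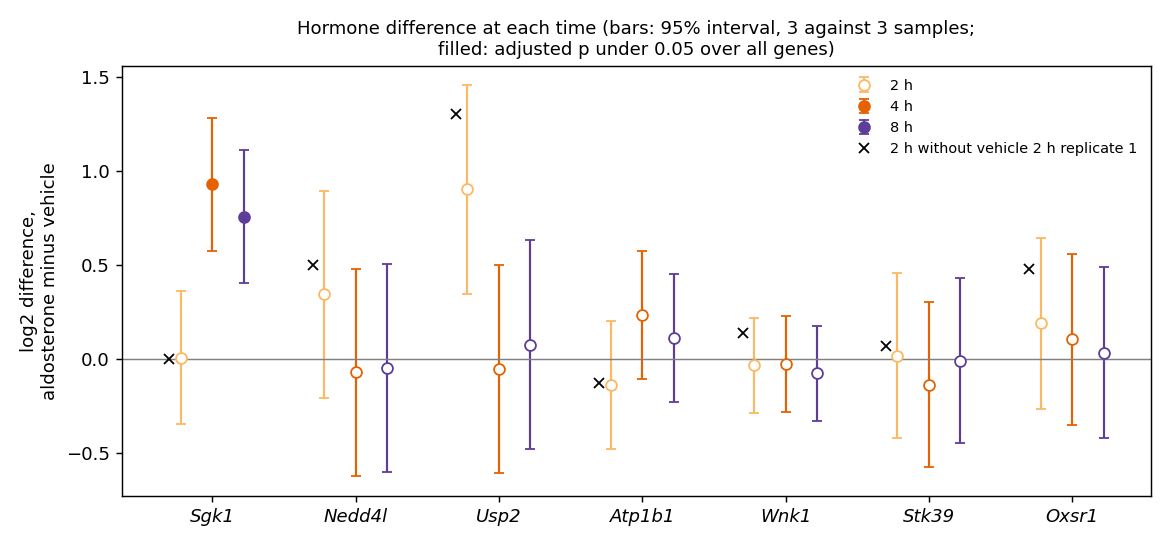
Log2 difference, aldosterone minus vehicle, of the main probe set of each gene at 2, 4 and 8 h, with 95% intervals from limma over 3 against 3 samples; filled points passed an adjusted p of 0.05 over all genes, and crosses give the 2 h value without vehicle 2 h replicate 1. Sgk1 at 4 and 8 h holds the filled points, and Usp2 at 2 h is the largest of the open ones, moving to 1.30 without that library.

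For Usp2, the deubiquitinase, the 2 h call changed when vehicle 2 h replicate 1 was left out. On its main probe set the 2 h log2 values were 7.80, 8.23 and 7.66 with aldosterone, against 7.80, 6.44 and 6.74 with vehicle. Vehicle replicate 1, the library that stood apart, lay within the range of the aldosterone samples, and the other vehicle samples lay below all of them. The difference was 0.90 ± 0.26, or 1.87-fold (adjusted p = 0.233), and without that library Usp2 rose by 1.30 ± 0.19 (adjusted p = 0.00431). On a second Usp2 probe set the 2 h values were 8.20, 8.28 and 7.68 with aldosterone, against 6.19, 6.88 and 6.78 with vehicle. Here the groups did not overlap with all 6 samples in, as in 13.9% of all genes at this time. The difference of 1.44 ± 0.36 on this probe set did not pass in the fit to all 20380 probe sets (adjusted p = 0.142), nor the difference of 1.23 without that library (adjusted p = 0.205).

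At the later times the Usp2 groups lay together on the main probe set. At 4 h the main probe set read 5.18, 5.19 and 5.24 with aldosterone, against 5.25, 5.28 and 5.24 with vehicle, a difference of -0.05 ± 0.26 (95% interval -0.61 to 0.50, adjusted p = 1). At 8 h the values were 4.31, 4.81 and 4.54 with aldosterone, against 4.22, 4.68 and 4.52 with vehicle, a difference of 0.08 ± 0.26 (adjusted p = 1). On the second probe set the 4 h values were 5.91, 5.62 and 5.22 with aldosterone, against 4.11, 5.74 and 4.96 with vehicle, which overlapped. This 4 h difference, 0.64 ± 0.35 without vehicle 2 h replicate 1, did not pass by limma (adjusted p = 0.982 over all probe sets). At 8 h the second probe set differed by -0.04. On the main probe set, the unadjusted p of a change in the Usp2 difference between times was 0.0404 (adjusted p = 0.799). Without vehicle 2 h replicate 1 the adjusted p was 0.0606.

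Usp2 had the largest fall of the 7 genes in culture. With aldosterone its mean was 7.89 at 2 h, 5.21 at 4 h and 4.55 at 8 h, and in vehicle it was 6.99, 5.26 and 4.48. Over 2 to 8 h it fell by 3.34 ± 0.26 with aldosterone (adjusted p = 1.18e-08) and by 2.52 ± 0.26 in vehicle (adjusted p = 3.18e-07), or by 2.11 in vehicle without replicate 1 of the 2 h group (adjusted p = 8.02e-08). The second probe set fell by 4.32 ± 0.36 with aldosterone and by 2.84 ± 0.36 in vehicle over the same hours (adjusted p = 2.56e-07 and 1.62e-05 in the fit to all probe sets). At 8 h the second probe set lay between 3.24 and 4.07 in all 6 samples, around the filter level of 4, so the lower end of its fall is imprecise.

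Nedd4l, the ubiquitin ligase that SGK1 phosphorylates, showed no aldosterone difference past the test. The 8 h log2 values were 5.73, 5.50 and 6.12 with aldosterone, against 5.64, 6.20 and 5.65 with vehicle. At 2 h they were 5.36, 4.98 and 5.73 with aldosterone, against 5.32, 4.84 and 4.87 with vehicle. The groups overlapped at each of the 3 times, and the differences were 0.35 ± 0.26 at 2 h, -0.07 ± 0.26 at 4 h and -0.05 ± 0.26 at 8 h (adjusted p = 0.645, 1 and 1). Without vehicle 2 h replicate 1 the 2 h difference was 0.50 ± 0.28 (adjusted p = 0.427). Between 2 and 8 h the Nedd4l difference with aldosterone was 0.43 ± 0.26 (adjusted p = 0.178), and in vehicle Nedd4l rose by 0.82 ± 0.26, or 1.76-fold (adjusted p = 0.0126). The test of whether the aldosterone difference changed with time, which bears on both, did not pass (adjusted p = 0.978). Its second probe set was below 4 in every sample.

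Atp1b1, the beta subunit of the sodium pump, was measured by 5 probe sets that did not behave alike. The main one, whose name carries the array maker's mark for probes shared with other sequences, read 7.61, 7.95 and 7.86 at 8 h with aldosterone, against 7.55, 7.90 and 7.64 with vehicle. The groups overlapped, and the difference was 0.11 ± 0.16 (95% interval -0.23 to 0.45, adjusted p = 1). The third Atp1b1 probe set, in the order of the plot of probe sets, read 7.15, 6.91 and 7.14 at 8 h with aldosterone, against 6.35, 6.47 and 6.36 with vehicle. These groups did not overlap, as in 14.5% of genes at this time, and the difference was 0.68 ± 0.16 (unadjusted p = 0.000972, adjusted p = 0.134). Among probe sets past the filter alone its adjusted p was 0.101, and 0.0467 when vehicle 2 h replicate 1 was also left out.

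The second Atp1b1 probe set in that plot read 7.34, 6.95 and 6.97 at 4 h with aldosterone, against 6.85, 6.75 and 6.37 with vehicle, which did not overlap, as in 10.6% of genes at 4 h. The difference was 0.43 ± 0.18 (adjusted p = 1), and at 8 h it was 0.29 ± 0.18 (adjusted p = 1). Of the remaining probe sets, one stayed between 4.34 and 4.83 in all 18 samples and the other was below 4 throughout, from 2.18 to 2.83. With aldosterone, the main probe set rose by 0.43 ± 0.16 over 2 to 8 h (adjusted p = 0.0325), a call lost under 6 of 28 alternatives. The second rose by 0.53 ± 0.18 (adjusted p = 0.0341), and the third rose by 0.94 ± 0.16 (adjusted p = 0.00037). In vehicle the same 3 probe sets gave 0.18, 0.15 and 0.09 over these hours, none past the test (adjusted p = 0.36, 0.492 and 0.663). The test of a difference between times did not pass for any of the 3 (adjusted p = 0.964, 0.658 and 0.635), so a change limited to aldosterone was not shown.

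**Figure D3:**
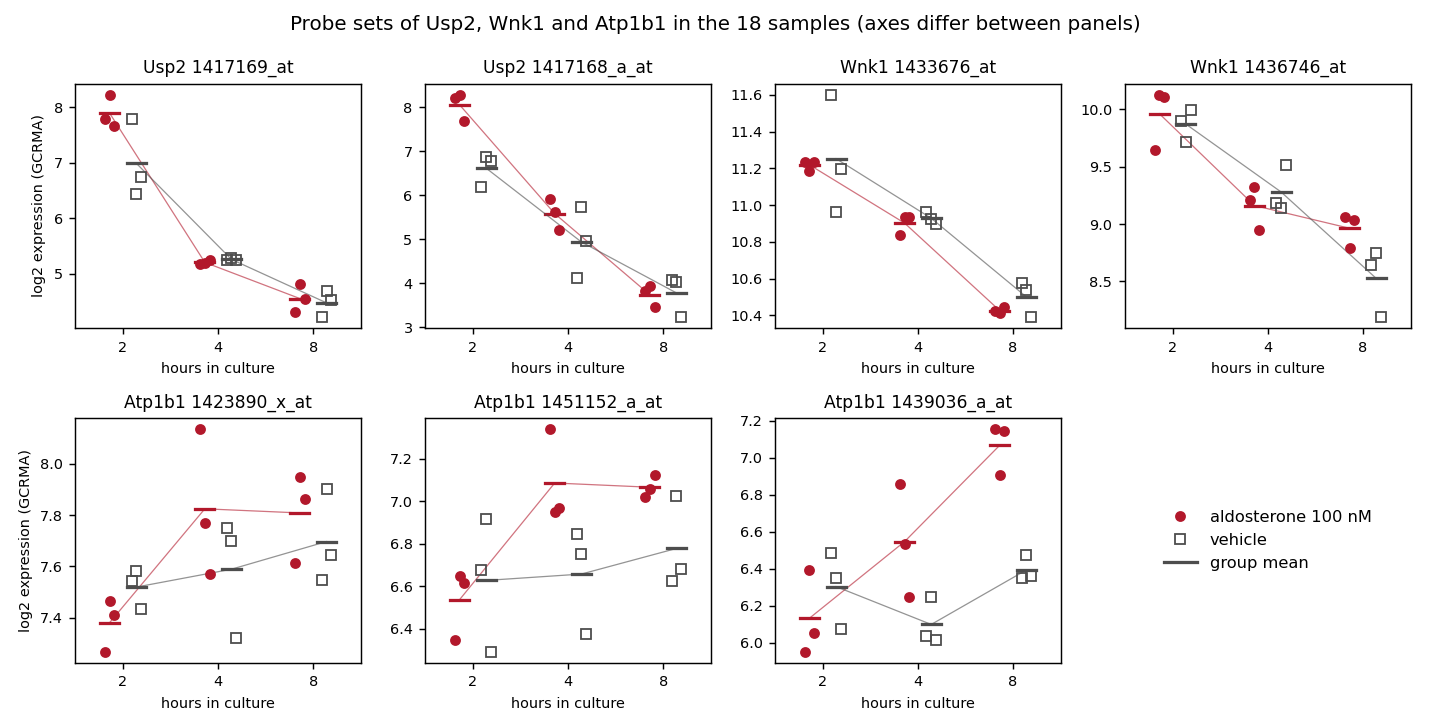
Log2 expression (GCRMA) against hours in culture for the probe sets of Usp2, Wnk1 and Atp1b1 named in the text, one point per aorta pool, aldosterone as filled red circles, vehicle as open grey squares, group means as lines; axes differ between panels. The Usp2 panels fall together, and the third Atp1b1 panel has all 3 aldosterone samples above the vehicle samples at 8 h while the first has the groups mixed.

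Wnk1, the kinase at the head of the WNK cascade, fell with time in both treatments and had no aldosterone difference past the test. The main probe set read 10.42, 10.41 and 10.44 at 8 h with aldosterone, against 10.57, 10.54 and 10.39 with vehicle. The 95% intervals of the aldosterone difference ran from -0.29 to 0.22 at 2 h, from -0.28 to 0.23 at 4 h and from -0.33 to 0.18 at 8 h. At 2 h the difference was -0.03 with all samples and 0.14 ± 0.08 without vehicle 2 h replicate 1 (adjusted p = 0.462). Over 2 to 8 h Wnk1 fell by 0.79 ± 0.12 with aldosterone (adjusted p = 2.4e-05) and by 0.75 ± 0.12 in vehicle (adjusted p = 4.08e-05), or by 0.58 in vehicle without replicate 1 of the 2 h group (adjusted p = 1.3e-05).

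A second Wnk1 probe set read 9.06, 8.79 and 9.03 at 8 h with aldosterone, against 8.64, 8.75 and 8.19 with vehicle. The groups did not overlap on this probe set, as in 14.5% of genes at this time. Its difference of 0.44 ± 0.17 did not pass (adjusted p = 0.771), and the main probe set gave -0.07 ± 0.12 at the same time. Over 2 to 8 h it fell by 1.0 ± 0.17 with aldosterone (adjusted p = 0.000289) and by 1.34 ± 0.17 in vehicle (adjusted p = 1.79e-05).

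Stk39 and Oxsr1, the kinases that WNK1 activates, moved in opposite directions with time in culture on their main probe sets. Stk39 read 4.91, 4.50 and 4.27 at 8 h with aldosterone and 5.37, 5.02 and 5.28 at 2 h with aldosterone. In vehicle it read 4.14, 5.01 and 4.55 at 8 h and 5.31, 5.29 and 5.02 at 2 h. It fell by 0.66 ± 0.21 with aldosterone (adjusted p = 0.0116) and by 0.64 ± 0.21 in vehicle (adjusted p = 0.0144). The Stk39 call was lost under 3 of 27 alternatives in vehicle and under 1 of 27 with aldosterone. Its main probe set carries the mark for probes shared between transcripts of different genes, and a second probe set gave -0.45 ± 0.17 in vehicle (adjusted p = 0.052 over all probe sets, 0.0418 over those past the filter). That value was -0.25 ± 0.15 without vehicle 2 h replicate 1 (adjusted p = 0.225 over all probe sets, 0.208 over those past the filter). With aldosterone the second probe set gave -0.17 ± 0.17 (adjusted p = 0.594 over all probe sets). Its values ran from 3.93 to 5.05 and those of the main one from 4.14 to 5.37, both near the filter level of 4. The 2 probe sets correlated at r = 0.37.

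Oxsr1 read 7.87, 7.99 and 7.74 at 8 h with aldosterone, against 6.87, 6.52 and 6.50 at 2 h with aldosterone. In vehicle it read 7.78, 8.00 and 7.72 at 8 h, against 7.02, 5.83 and 6.46 at 2 h. The 8 h samples lay above every 2 h sample in both treatments. Over these hours 29.2% of all genes were called higher with aldosterone and 26.6% in vehicle, and the share without overlap is not given here. Oxsr1 rose by 1.24 ± 0.22 with aldosterone, or 2.36-fold (adjusted p = 9.6e-05), and by 1.40 ± 0.22 in vehicle, or 2.63-fold (adjusted p = 2.73e-05). Without vehicle 2 h replicate 1 the rise in vehicle was 1.69 (adjusted p = 3.2e-07). Most of the rise in vehicle came after 4 h, with 1.13 ± 0.22 between 4 and 8 h (adjusted p = 0.00053). Neither kinase had an aldosterone difference past the test, and the differences ran from -0.14 to 0.02 for Stk39 and from 0.03 to 0.19 for Oxsr1 over the 3 times. The Oxsr1 difference at 2 h was 0.48 ± 0.17 without vehicle 2 h replicate 1 (unadjusted p = 0.0135, adjusted p = 0.207).

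**Figure D4:**
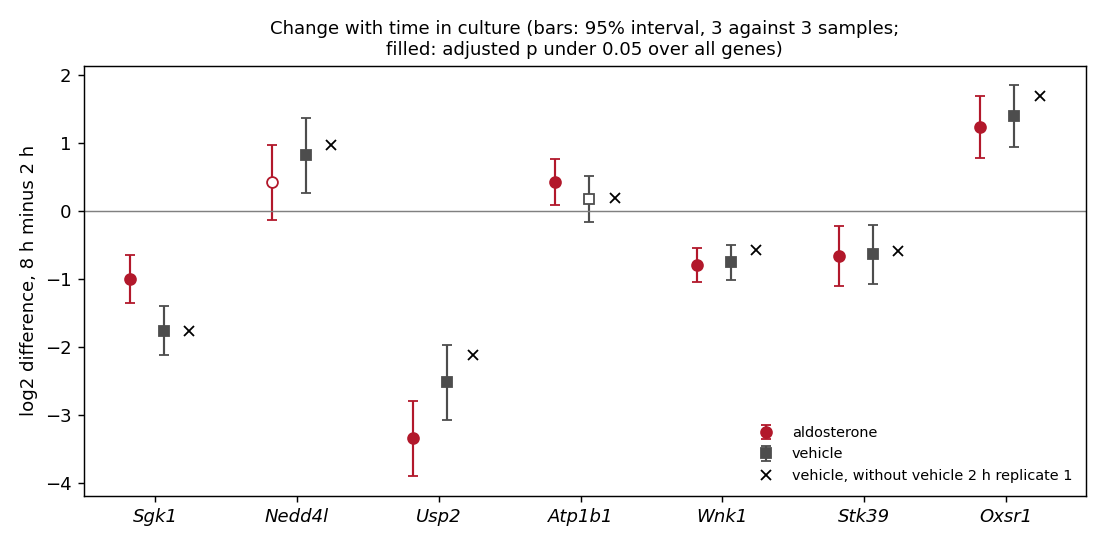
Log2 difference between 8 h and 2 h of culture for the main probe set of each gene, with aldosterone (red circles) left of vehicle (grey squares), 95% intervals from limma over 3 against 3 samples, filled where the adjusted p over all genes was under 0.05; crosses give vehicle without replicate 1 of the 2 h group. Sgk1, Usp2, Wnk1 and Stk39 lie below 0 and Oxsr1 above 0 in both treatments, and the open points are Nedd4l with aldosterone and Atp1b1 in vehicle.

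Time in culture moved more of the 7 genes than aldosterone did. Between 2 and 8 h with aldosterone 6 of 7 members changed, all but Nedd4l, against 56.5% of all genes. Of the members 4 were lower and 2 higher, against 27.3% and 29.2% of all genes. In vehicle 6 of 7 changed, all but Atp1b1, against 58.5%, again with 4 lower and 2 higher, against 31.9% and 26.6%. In vehicle between 2 and 4 h 3 of 7 changed, Sgk1, Usp2 and Wnk1, all lower, against 40.2% in either direction and 25.6% lower. Between 4 and 8 h 3 of 7 changed, Usp2 and Wnk1 lower and Oxsr1 higher, against 37.7% of genes, 17% lower and 20.7% higher. Without vehicle 2 h replicate 1, the Wnk1 difference between 4 and 2 h was -0.15 and did not pass (adjusted p = 0.163), and Oxsr1 rose by 0.55 (adjusted p = 0.018). The Stk39 difference between 8 and 4 h in vehicle was -0.53. It did not pass with all samples (adjusted p = 0.0533) but passed without that library (adjusted p = 0.0426). The median change over 2 to 8 h in vehicle was -0.64 for the 7 members and -0.07 for all genes. Cell type markers moved over the same hours. Of the smooth muscle markers 4 of 6 were lower and 1 higher at 8 h than at 2 h in vehicle, with list means per sample of 11.39 to 11.68 at 8 h and 12.18 to 12.50 at 2 h. Of the macrophage markers 4 of 5 were lower, with list means of 5.24 to 5.61 at 8 h and 6.85 to 7.84 at 2 h. Lower too were 4 of 5 endothelial, 4 of 4 fibroblast and 3 of 3 adipocyte markers tested, and the part of these shifts in the members' changes was not tested.

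With all samples in, the other listed genes of the pathway were not called for aldosterone. Of 70 genes in 8 lists around the members, 37 were tested, 21 were below the filter and the other 12 were not analysed here. By limma 0 of the 37 passed at 2, 4 or 8 h, in the mean over times or in the difference between times, and 5, 3, 5, 6 and 4 of them had an unadjusted p under 0.05 in these comparisons, beside 11%, 3.76%, 6.26%, 8.43% and 5.92% of all genes. Without vehicle 2 h replicate 1, 1 passed at 4 h, Tsc22d3, 1 at 8 h, Atp1b3, and both for the mean of the times. The share of all genes that passed in that refit is not given here, so these counts have no background beside them. Tsc22d3 encodes GILZ, a steroid-induced protein that acts with SGK1 on the sodium channel in the kidney. Its aldosterone difference with all samples was 1.24 ± 0.26 at 4 h (adjusted p = 0.0748).

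The genes that define renal sodium transport were not detectable above the filter. Scnn1a, Scnn1b and Scnn1g, the 3 subunits of the epithelial sodium channel, reached at most 1.76, 2.60 and 2.11 in any sample. Hsd11b2, whose enzyme keeps glucocorticoids from the mineralocorticoid receptor in the nephron, reached at most 3.38, and the cotransporters Slc12a1 and Slc12a3 reached 3.76 and 2.60. The kinases Sgk2, Wnk2 and Wnk4 also stayed below the filter. A low array value does not show that a transcript was absent.

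Among the pathway genes tested, 20 of 37 changed between 2 and 8 h in vehicle, 7 higher and 13 lower, beside 26.6% of all genes higher and 31.9% lower. Without vehicle 2 h replicate 1 the count was 24, 12 higher and 12 lower. The share of all genes that changed in that refit is not given here, for this count or for the list counts below. Of the SGK1 substrates outside transport 3 of 5 changed: Ndrg1, a stress-responsive gene whose protein SGK1 phosphorylates, rose by 2.76 ± 0.14, and the FOXO transcription factors Foxo1 and Foxo3 fell by 1.49 ± 0.14 and by 1.21 ± 0.16. In the ubiquitin ligase arm 7 of 12 changed, or 10 of 12 without that library, with Tsc22d3 at -2.84, the ligase Nedd4 at -1.38 and the deubiquitinase Usp10 at 0.56. Of the sodium pump list 4 of 5 changed, with the beta subunit Atp1b2 at -1.47, and the pump regulators Fxyd5 at 1.38 and Fxyd1, or phospholemman, at -1.0.

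Of the cotransporter and exchanger list 3 of 4 changed, all lower. Between 2 and 8 h in vehicle 58.5% of all genes changed, 31.9% lower and 26.6% higher, the background for each list count with all samples. Slc12a2, the cotransporter NKCC1 on which STK39 and OXSR1 act in smooth muscle, fell by 1.07 ± 0.18. The potassium-chloride cotransporter Slc12a7 fell by 1.15 ± 0.17, and Slc9a3r2, a scaffold protein that binds the sodium-hydrogen exchanger and SGK1, fell by 2.84 ± 0.23. Hsd11b1, whose enzyme regenerates active glucocorticoid, fell by 1.53 ± 0.22 and was the 1 of 2 receptor and hormone access genes that changed. Mapkap1, a subunit of the kinase complex mTORC2 that activates SGK1, fell by 0.86 ± 0.26, as 1 of 4 in its list, and without vehicle 2 h replicate 1 0 of these 4 passed. Furin, a protease that cleaves the sodium channel, rose by 0.48 ± 0.15 and was the only gene of the channel list tested, and 0 of 4 genes of the WNK list passed, 2 of them with an unadjusted p under 0.05. Without vehicle 2 h replicate 1, 2 of the 4, Cab39 and Klhl2, passed, both higher.

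The genes whose pattern was most like that of each member were ranked by Pearson correlation over the 18 samples, which share their hours in culture, so the values mostly describe a common time course. For Sgk1 the closest were Sptssa, Tsc22d3, Irs2, Rasd1 and Dbn1, with r of 0.91, 0.90, 0.90, 0.90 and 0.90. With the mean of each time removed from every sample, the closest to Sgk1 were Phldb2, Klf6, Ccn2, Zfp36l2 and Per1, with r of 0.91, 0.89, 0.87, 0.86 and 0.85. Per1, a circadian clock gene, rose with aldosterone by 1.41 ± 0.26 at 4 h and by 1.49 ± 0.26 at 8 h (adjusted p = 0.0221 and 0.00551), and Phldb2 rose by 0.84 ± 0.15 and by 0.85 ± 0.15 (adjusted p = 0.0221 and 0.00755). Ccn2, a secreted matrix-associated protein, rose by 0.50 ± 0.09 and by 0.86 ± 0.09 (adjusted p = 0.0175 and 1.69e-05). The transcription factor gene Klf6 differed by 0.29 ± 0.13 and 0.38 ± 0.13, not past the test at either time (adjusted p = 1 and 0.384). Zfp36l2, which encodes an RNA-binding protein, differed by 0.47 ± 0.12 and 0.39 ± 0.12, also not past the test (adjusted p = 0.309 and 0.318). These likenesses rest on the same treatment and time groups as the tests above.

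The other members had different neighbours. Usp2 was closest to Ndufa6, Atp5h and Abcd3, all at r = 0.97, and Wnk1 to Fbln5, Itgb5 and Fkbp7, at 0.98, 0.97 and 0.97. Oxsr1 was closest to Anapc1, Mrpl17 and Abcf1, at 0.97, 0.96 and 0.96, and Stk39 to Arhgef12, Dock8 and Notch1, at 0.89, 0.88 and 0.88. Nedd4l was closest to Mrpl20, Psmd1 and Sdhaf2, at 0.82, 0.81 and 0.80. Atp1b1 had the loosest likenesses, with Nsun5, Fjx1 and St3gal1 at 0.76, 0.73 and 0.70. No member was among the closest genes of another member.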

How the data were processed

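RNA of 18 aorta pools was measured on 1-colour Affymetrix arrays. The log2 values are those the authors deposited; the submitters' processing notes name GCRMA. The GCRMA version is not given in the sources used here. Neither raw array files nor detection calls entered the analysis. With 3 arrays per group, their number limits the precision.

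The 64 control probe sets were left out. Testing was limited to probe sets of 1 gene symbol that exceeded a log2 level of 4 in 3 or more samples. Each gene was represented by its brightest such probe set, leaving 7092 genes. In limma 3.58.1 (R 4.3.3), 1 mean per group was estimated from the 18 samples together, with empirical Bayes moderation and intensity trend. Adjustment was by Benjamini-Hochberg, at a threshold of 0.05. The members' other probe sets come from a fit to all 20380 probe sets without the filter. Per the series' design text, the 3 samples of a group are separate pools. Sequences are RefSeq's, GRCm38.p6, read by gene symbol with Python 3.11.15. The Nedd4l promoter was not searched, and no sequence is shown for Nedd4l.

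The members, the pathway and marker lists and the tests were chosen with earlier results of these data known. Named genes were the 7 members with every probe set, up to 3 genes of each pathway list with the smallest p in vehicle 8 h against 2 h, any list gene past the threshold for aldosterone, and the genes most correlated with each member (5 for Sgk1, 3 for the others). Atp1b3, Cab39, Klhl2 and the marker genes are named also to identify counts or list values, after their values were seen. The 28 alternatives covered the trend, filter, choice of probe set, normalization, array weights, a replicate block, the compared groups alone and each sample left out. The fit was tested on simulated data.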

Additional observations from a re-analysis of the deposited data

How the results depend on the processing

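The 7 genes were refitted under 28 alternatives, 18 of them leaving out 1 sample. Of 1732 values, 1629 kept sign and side of the threshold, 40 differed in sign while passing in neither fit, 45 lost the call, 18 gained it and 0 reversed. Members past the test for aldosterone at 2 h numbered 0, but 1 (Usp2) with probe sets averaged or with array weights, and 0 to 1 with a sample left out. At 4 h they numbered 1 (Sgk1), but 0 without intensity trend, without filter, with median centring or with the compared groups alone, and 0 to 1 with a sample left out. At 8 h they numbered 1 (Sgk1), but 0 under the same 4 settings and under the replicate block, and 0 to 1 with a sample left out. The Sgk1 call was lost at 4 h without vehicle 4 h replicate 3 or any one of the 3 aldosterone 4 h samples. At 8 h it was lost without aldosterone 2 h replicate 3, vehicle 8 h replicate 1 or any one of the 3 aldosterone 8 h samples. For the mean of the times there were 2 (Sgk1, Usp2) in place of 1 with array weights, and 1 to 2 with a sample left out. Between 4 and 2 h in vehicle 5 in place of 3 passed with array weights. With a sample left out, 2 to 3 passed there, 2 to 4 between 8 and 4 h, 5 to 6 over 2 to 8 h in vehicle and 4 to 6 with aldosterone. The Wnk1 fall between 2 and 4 h was lost under 10 alternatives. The Usp2 fall between 4 and 8 h in vehicle was lost under 6, as was the Atp1b1 rise with aldosterone over 2 to 8 h. Over 2 to 8 h in vehicle the Nedd4l rise was lost under 1 and the Stk39 fall under 3. With aldosterone the Stk39 fall was lost under 1. The causes of these changes were not tested.

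Over all genes the counts for aldosterone moved by more than 1.5 times under several settings. They ranged from 0 (compared groups alone) to 54 (array weights) at 2 h, where the count was 5, and from 5 (without aldosterone 4 h replicate 2) to 42 at 4 h, where it was 17. They ranged from 33 (without aldosterone 8 h replicate 2) to 222 at 8 h, where it was 71, from 53 to 260 for the mean, where it was 78, and from 8 to 29 for the difference between times, where it was 11. In vehicle over 2 to 4 h the compared groups alone gave 1331 in place of 2852. Median centring moved the median of all genes by over 0.1 only in that comparison, by 0.15.

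Deviations of the 9 same-numbered pairs from their group means correlated at -0.19 to 0.28, with 2 over 0.1. With 3 samples per group, these correlations cannot tell whether replicate numbers pair the samples. With the replicate block the Sgk1 difference at 8 h stayed 0.76 with an adjusted p of 0.0518, and no other member call for aldosterone changed. With 3 arrays per group, differences near the threshold are imprecise, and values near or below log2 4 have little signal above background.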
